A study of Mus musculus with 36 samples.

Results

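The 37 genes described here are antiviral effectors induced by interferon. They are a list of symbols, chosen with earlier results of these data known but by no threshold on measured values, and each was found as 1 row among the 49585 genes of every count table. Of them, 36 had enough reads to be among the 13364 genes fitted, and Epsti1, an epithelial-stromal interaction gene induced by interferon, was too low at 0 to 1.98 CPM. CPM means the counts of a gene per 1000000 of the library size after TMM normalization. The 37 fall into 7 groups by role: 3 GTPase and ATPase effectors, 2 enzymes of antiviral nucleotides, 9 RNA helicases, nucleases and tRNA-directed factors, 9 membrane, secretory and lipid-binding proteins, 2 TRIM ubiquitin ligases, 5 proteins of nuclear bodies or the PYHIN family, and 7 others.

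Mouse embryonic fibroblasts (MEF), cultured in DMEM, carried the Tbk1 N129D allele in 2 copies (hom; E1.4, E2.2, E2.9), 1 copy (het; E1.3, E2.5, E2.6, E2.8) or 0 copies (WT; E1.5, E2.1, E2.7), and values below keep this order of lines. Each line gave 3 libraries: 4 h of poly(I:C), which mimics viral double-stranded RNA; antimycin and oligomycin together (AO), inhibitors of respiratory complex III and of ATP synthase, for 4 h; and no treatment. In addition, WT line E1.5 was grown at high and at low cell density, with 1 library for each density and treatment (6 in all), and the other 30 libraries carry no density label. For strain, embryonic age and passage, the sources used here give no value.

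Double-stranded RNA is sensed in endosomes by TLR3 and in the cytosol by RIG-I-like helicases. Both routes use the kinase TBK1 to activate the transcription factor IRF3, which switches on interferon beta. Interferon beta then acts on its receptor, and a complex that holds IRF9 binds a promoter element, the ISRE, in genes whose products block viral entry, RNA synthesis, translation or release. Fibroblasts are a standard cell in which this loop is studied, and they keep a low level of it without added virus.

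The promoters are shown because the members moved largely together. The ISRE core was searched as GAAANNGAAA on both strands (TTTCNNTTTC on the other) in the 250 bases before the RefSeq start sites on GRCm38.p6. Of 37 members, 31 had a promoter in the RefSeq table, and 10 of these 31 (32.3%) held a match, against 3.46% of 27025 genes in the table. The 10 were Apol9a, Apol9b, Bst2, Ddx60, Ifi203, Rsad2, Slfn5, Slfn8, Slfn9 and Trim30a. The stretches below run 5′ to 3′ on the strand of the gene, and the matches are in capitals. They come from Rsad2 at chr12:26456453-26456602 (minus strand), Bst2 at chr8:71537473-71537622 (minus strand), Ddx60 at chr8:61927937-61928086 (plus strand), Trim30a at chr7:104465194-104465343 (minus strand) and Ifi44 at chr3:151749961-151750110 (minus strand). Bst2 holds 2 overlapping matches, Ddx60 holds 2 separate ones, and Ifi44, shown for comparison, holds none.
Rsad2: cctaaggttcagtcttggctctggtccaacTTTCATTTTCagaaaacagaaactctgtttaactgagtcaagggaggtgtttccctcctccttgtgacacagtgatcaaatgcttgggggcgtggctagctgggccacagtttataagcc
Bst2: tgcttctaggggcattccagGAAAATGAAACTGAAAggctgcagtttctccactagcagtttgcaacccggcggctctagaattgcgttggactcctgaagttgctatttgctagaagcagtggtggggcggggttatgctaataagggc
Ddx60: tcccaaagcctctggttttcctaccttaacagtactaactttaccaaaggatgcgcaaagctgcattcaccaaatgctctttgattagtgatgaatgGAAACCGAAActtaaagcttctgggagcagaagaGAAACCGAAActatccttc
Trim30a: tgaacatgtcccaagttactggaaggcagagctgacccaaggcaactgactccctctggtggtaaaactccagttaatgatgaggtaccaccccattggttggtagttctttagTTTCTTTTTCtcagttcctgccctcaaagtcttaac
Ifi44: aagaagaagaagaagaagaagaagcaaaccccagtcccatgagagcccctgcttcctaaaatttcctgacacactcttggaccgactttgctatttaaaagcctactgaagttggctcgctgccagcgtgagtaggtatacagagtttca
A match is a run of letters and was not tested as a binding site, and a promoter without one may respond through other letters or from elsewhere.

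The 30 libraries without a density label held 3689144 to 14879227 counts. Fibroblast markers such as Col1a1 were high in every library, with the 10 markers summing to 8750 to 19600 CPM. Macrophage markers, 15 genes, were all detected in hom line E2.9, where they summed to 261 CPM under poly(I:C), 160 CPM under AO and 251 CPM untreated. All 15 were detected in het line E2.6 as well, at 54.6, 37 and 60.4 CPM in the same conditions, while no other library passed 10.5 CPM. Their part in the results for these 2 lines was not tested, so values without hom line E2.9 are given where they differ. Messenger RNA of Tbk1 itself stood at 40.7, 46.3 and 48.4 CPM in untreated hom lines, against 48, 39 and 49.3 CPM in untreated WT lines, which overlap.

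In untreated cells the effectors stood lower in hom lines than in WT lines. Summed over the 36 fitted genes, the untreated level was 447.8 to 558.2 CPM in hom lines, against 1465 to 1746 CPM in WT lines, and the median gene stood at 2.77 to 3.02 CPM in hom lines, against 20.9 to 33.8 CPM in WT lines. Of 36 fitted members, 33 were lower in every hom line than in every WT line, where 4.78% of all genes showed that arrangement. The median log2 difference over the members was -2.30, against 0.01 over all genes fitted. In bulk RNA, fewer cells that express a gene and less RNA per cell cannot be told apart. These genes also differed with cell density within WT line E1.5, as described below, and the libraries compared here carry no density label. The part of density in the differences between lines was not tested.

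Single genes did not pass in the untreated comparison by edgeR's quasi-likelihood test with Benjamini-Hochberg adjustment (adjusted p under 0.05). That test called 0 of 36 members, where 0.015% of all genes were called lower. At an unadjusted p under 0.05 it gave 23 members, all lower in hom lines, where 1.56% of all genes were lower at that limit. DESeq2 called 11 members, where 0.24% of all genes were called lower, and a fit of the compared groups alone called 18, where 0.426% were. A fit without het line E2.5 and hom line E2.9, added after the data were seen, called 11, where 0.266% of all genes were called lower. Untreated, E2.5 was the highest het line for 34 of the 36 members, so this fit is no independent support for them. The spread in the fit of 30 libraries is pooled over all 9 groups, including the het lines, whose members differ widely between lines as described below.

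Under poly(I:C) the gap was wider in level. The summed effectors reached 528.3 to 878.3 CPM in hom lines, against 4070 to 4580 CPM in WT lines. Every hom line lay below every WT line for 34 of 36 members, where 5.46% of all genes did so, and the median log2 difference was -3.31, against 0.02 over all genes. The 2 exceptions were Slfn2 and Slfn5, chosen for mention after their values were seen. A total of 6 members passed, all lower in hom lines, where 0.187% of all genes were called lower. They were Apol7a, Mx2, Znfx1, Ncoa7, Pml and Ddx60. This count rests on each line: it was 0 without WT line E1.5 or E2.7 and without hom line E1.4, E2.2 or E2.9, and 1 without WT line E2.1. In those fits 0% of all genes were called lower, and 0.0147% without E2.1. DESeq2 called 28 members, where 0.787% of all genes were called lower, and the compared groups alone gave 26, where 0.931% were. With the part of the line name before the point (E1 or E2) as a covariate 15 members were called, where 0.382% of all genes were. The fit without het line E2.5 and hom line E2.9 gave 31, where 0.969% of all genes were called lower. Under poly(I:C), E2.5 was the highest het line for 36 of 36 members and E2.9 the highest hom line for 28. Leaving out the lines that are extreme for the genes counted favours such calls, so the 31 are no independent support.

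**Figure D1:**
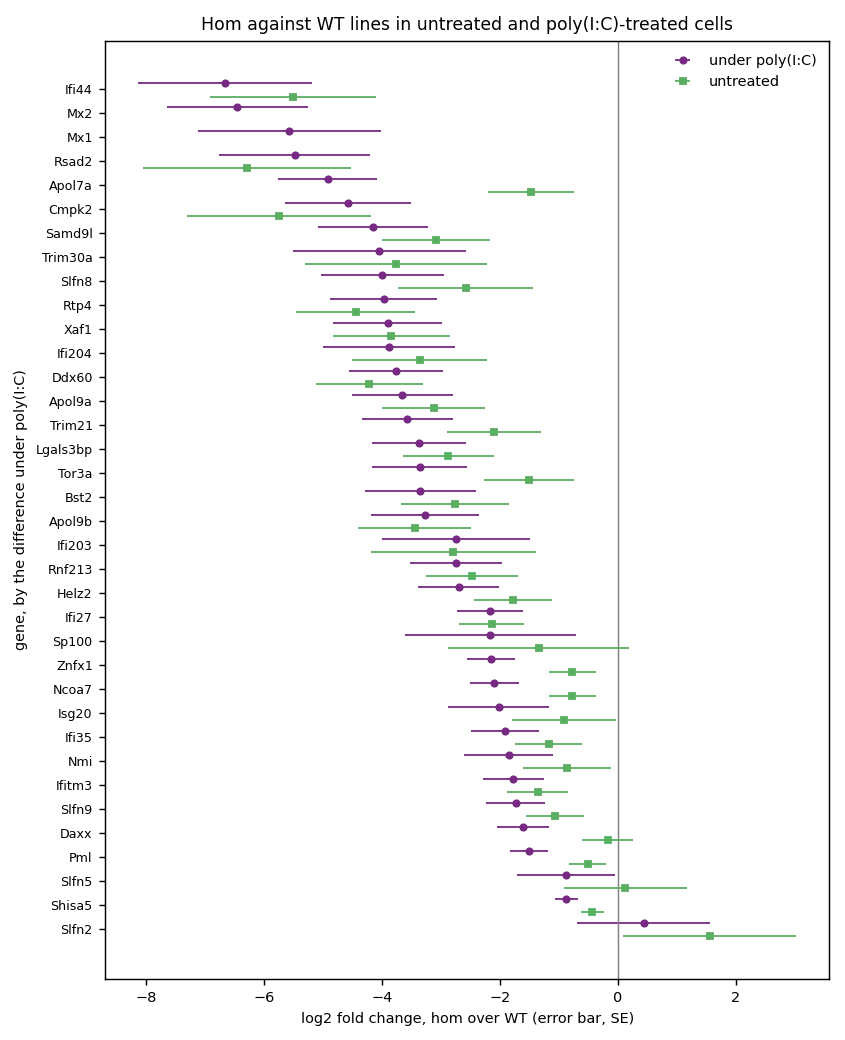
Log2 fold change of hom over WT lines for 36 effectors under poly(I:C) (circles) and untreated (squares), with bars of 1 SE from the edgeR fit. The untreated points of Mx1 and Mx2 are left out because hom lines hold 0 and 2 counts there, and under poly(I:C) Slfn2 alone lies right of 0.

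The heat map of all 37 genes shows largely the same order in every role group, with 1 bright het column and 3 dark hom columns in each condition.

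**Figure D2:**
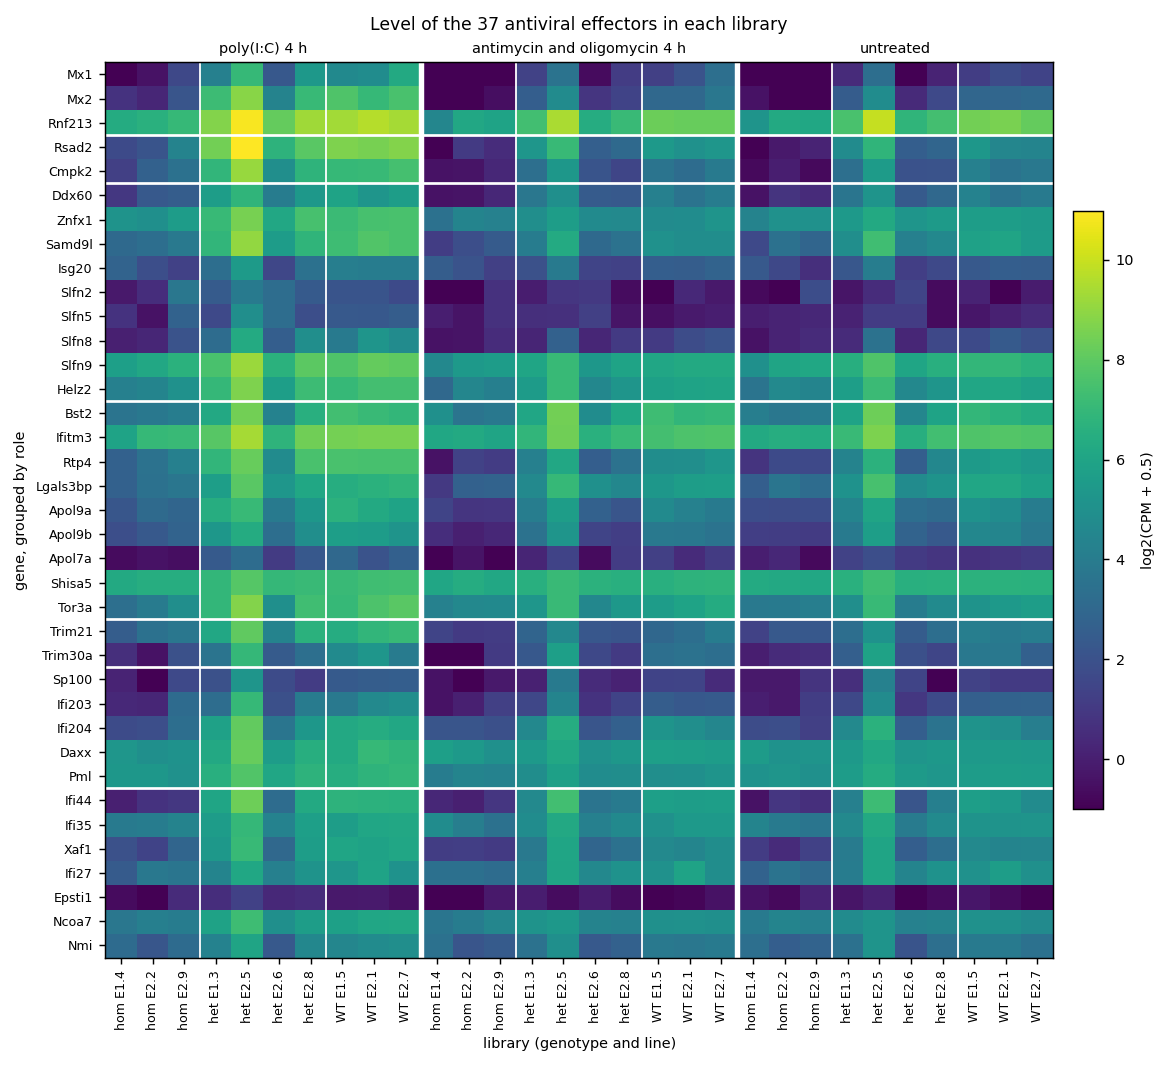
Level of each of the 37 effectors (rows, grouped by role) in each of 30 libraries (columns, grouped by treatment and genotype), as log2 of CPM plus 0.5. Hom lines are darkest, het line E2.5 is brightest, and levels summed over the 36 fitted genes ran from 404.7 CPM in hom line E1.4 under AO to 11850 CPM in het line E2.5 under poly(I:C).

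Among the GTPase and ATPase effectors, the Mx proteins are dynamin-like GTPases that trap viral nucleocapsids, and RNF213 is a giant ubiquitin ligase with an ATPase core. Mx2 is annotated as a polymorphic pseudogene in GENCODE, and it shares 94.7% identity over 924 aligned bases with Mx1, so reads may be split between them. Mx1 had 0, 0.242 and 2.49 CPM in hom lines, 18, 4.44 and 41 CPM in het lines E1.3, E2.6 and E2.8, and 25.6, 27.6 and 76.4 CPM in WT lines under poly(I:C). Het line E2.5 was the highest, with 1110 counts of Mx1. In untreated cells its values were 0, 0 and 0 CPM in hom lines, 0.902, 9.61, 0 and 0.658 CPM in het lines and 1.75, 2.85 and 2.17 CPM in WT lines. The 3 untreated hom lines together held 0 counts of Mx1, against 41 in WT lines, a level at least 18.3-fold lower than in WT lines when set against a floor of 3 counts over the hom group. Hom lines held 15 counts under poly(I:C), of which 14 were in line E2.9, so no fold over untreated hom lines is given.

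Mx2 had 1.17, 0.725 and 3.92 CPM in hom lines, 147, 454, 20.1 and 135 CPM in het lines and 206, 129.4 and 184 CPM in WT lines under poly(I:C), where the groups hom and WT lay far apart, with a log2 difference of -6.45 ± 1.20 (SE) and an adjusted p of 0.0253 in edgeR. Without treatment Mx2 had 0.246, 0 and 0 CPM in hom lines, 5.11, 28.3, 0.841 and 2.63 CPM in het lines and 7.31, 7.26 and 8.04 CPM in WT lines. Hom line E1.4 held the 2 counts found in untreated hom cells. Rnf213, the most abundant member in untreated WT lines before scaling to length, had 83.5, 96.2 and 131 CPM in hom lines, 435, 1880, 285 and 625 CPM in het lines and 634, 793 and 652 CPM in WT lines under poly(I:C). Untreated, it had 36.3, 77.4 and 69.4 CPM in hom lines, 184, 970, 113 and 171 CPM in het lines and 347, 378 and 288 CPM in WT lines. Hom lines lay below WT lines in both conditions, yet the differences did not pass in edgeR (adjusted p = 0.222 under poly(I:C) and 0.976 untreated).

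The nucleotide enzymes are Rsad2, which encodes viperin and turns CTP into a chain terminator of viral RNA synthesis, and its neighbour Cmpk2, a mitochondrial nucleotide kinase. Rsad2 had 2.74, 3.87 and 20.1 CPM in hom lines, 340, 2020, 108 and 242 CPM in het lines and 401, 367 and 427 CPM in WT lines under poly(I:C). Its untreated levels were 0, 0.376 and 0.63 CPM in hom lines, 26.6, 113, 5.4 and 6.97 CPM in het lines and 39.5, 21.9 and 20.6 CPM in WT lines. The hom lines were lowest in both conditions, and the log2 difference between hom and WT lines was -5.48 ± 1.28 (SE) under poly(I:C) and -6.29 ± 1.76 untreated, with edgeR adjusted p of 0.0721 and 0.721. Cmpk2 ran alongside, with 1.95, 6.04 and 10.7 CPM in hom lines, 116, 559, 29.6 and 111 CPM in het lines and 128, 136 and 172 CPM in WT lines under poly(I:C). Untreated Cmpk2 stood at 0.123, 0.502 and 0.126 CPM in hom lines, against 18.4, 11.5 and 13.2 CPM in WT lines, also without overlap.

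**Figure D3:**
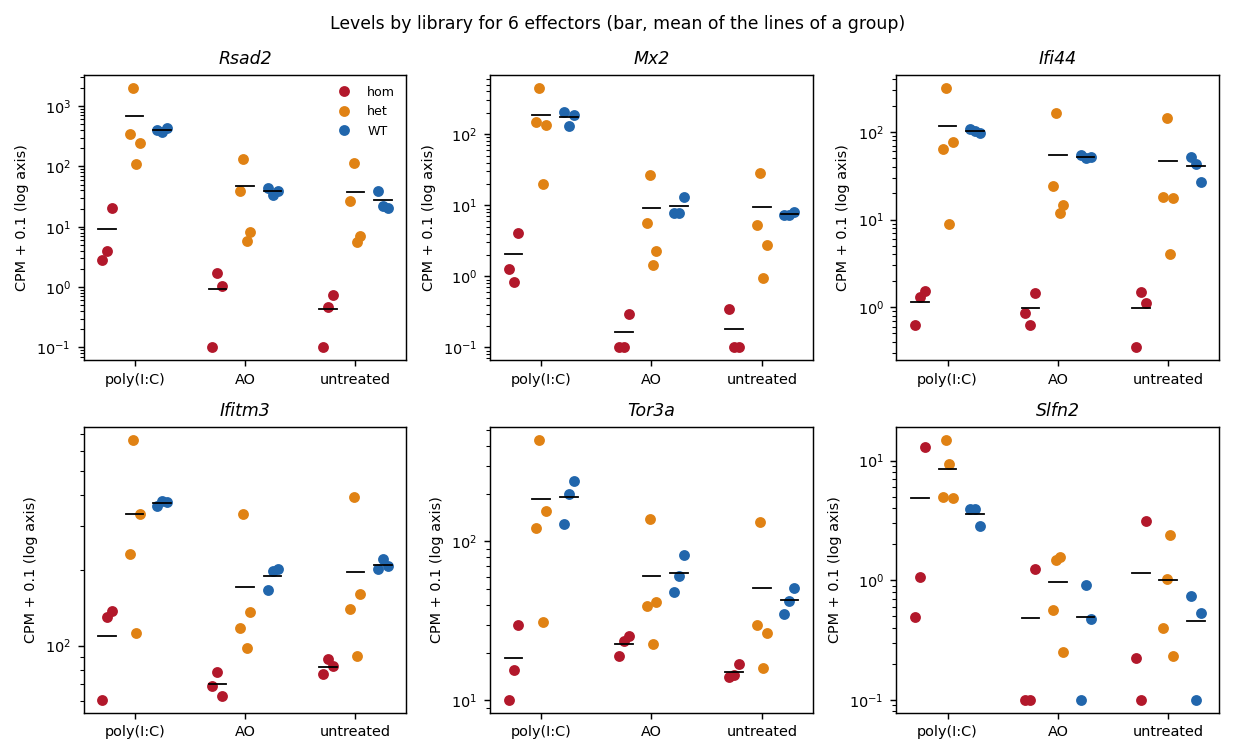
Level of 6 effectors in each of 30 libraries, as CPM plus 0.1 on a log axis, by treatment and genotype, with a bar at the mean of each group. For Rsad2, Mx2, Ifi44, Ifitm3 and Tor3a the hom lines lie below every WT line in each condition, while for Slfn2 hom line E2.9 lies above every WT line under poly(I:C), at 12.8 CPM.

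In the group of RNA-directed factors, DDX60 is a helicase that promotes RIG-I-like sensing and ZNFX1 is a helicase that binds viral RNA at mitochondria. Ddx60 had 1.43, 4.59 and 5.34 CPM in hom lines, 50.9, 114, 16.1 and 42 CPM in het lines and 62.2, 37.7 and 49.6 CPM in WT lines under poly(I:C), and hom lines passed as lower than WT lines there (log2 difference -3.76 ± 0.79 (SE), edgeR adjusted p = 0.0466). Without treatment the levels of Ddx60 were 0.246, 1.25 and 0.881 CPM in hom lines, 12.2, 36.4, 4.68 and 7.89 CPM in het lines and 19.2, 11.4 and 14.3 CPM in WT lines, and this was the smallest p of the untreated comparison among the members (log2 difference -4.21 ± 0.90, edgeR adjusted p = 0.218). Znfx1 had 35.2, 30.5 and 48.8 CPM in hom lines, 132, 373, 71.4 and 178 CPM in het lines and 143, 182 and 186 CPM in WT lines under poly(I:C), a log2 difference of -2.15 ± 0.41 (edgeR adjusted p = 0.0253). Untreated Znfx1 differed less, with 20.2, 33 and 33.2 CPM in hom lines, against 49.6, 51.1 and 46.3 CPM in WT lines.

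ISG20 is a 3′ to 5′ exonuclease that degrades viral RNA. Isg20 had 6.51, 3.14 and 1.96 CPM in hom lines, 9.71, 45.1, 2.47 and 10.6 CPM in het lines and 16.7, 15.6 and 16 CPM in WT lines under poly(I:C) and 4.56, 2.51 and 1.01 CPM in hom lines, 4.21, 16.5, 1.8 and 2.63 CPM in het lines and 4.61, 5.41 and 5.21 CPM in WT lines untreated. The hom and WT lines of Isg20 lay close in untreated cells, where hom line E1.4 had 4.56 CPM and WT line E1.5 had 4.61 CPM, and lay apart under poly(I:C). Helz2, a helicase and nuclear receptor coactivator, and Samd9l, an inhibitor of translation, were 2.7 ± 0.68 and 4.15 ± 0.93 lower in log2 in hom lines than in WT lines under poly(I:C) (edgeR adjusted p = 0.101 and 0.0593).

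The Schlafen genes of the same group bind or cut transfer RNA, and SLFN2 protects it from cleavage. Slfn2 was the exception to the common direction under poly(I:C), and Slfn5 overlapped between hom and WT lines. Slfn2 had 0.391, 0.967 and 12.8 CPM in hom lines, 4.86, 14.8, 9.22 and 4.72 CPM in het lines and 3.8, 3.85 and 2.74 CPM in WT lines under poly(I:C). Its untreated levels were 0.123, 0 and 3.02 CPM in hom lines, 0.301, 0.924, 2.28 and 0.132 CPM in het lines and 0.635, 0 and 0.434 CPM in WT lines. Hom line E2.9, the line with macrophage markers, was the highest hom line for Slfn2 in both conditions. The log2 difference of Slfn2 between hom and WT lines was 0.44 ± 1.13 (SE) under poly(I:C) and 1.56 ± 1.47 untreated. Without hom line E2.9 it was -2.41 under poly(I:C) and -2.17 untreated. Slfn5 was also highest in that hom line under poly(I:C), with 6.23 CPM in hom line E2.9, against 1.17 and 0.242 CPM in hom lines E1.4 and E2.2 and 4.46 to 5.26 CPM in WT lines. Slfn8 and Slfn9, 92.0% identical over 3853 aligned bases, are uncertain where reads could be shared; both lay lower in every hom line than in every WT line under poly(I:C).

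A pair of membrane proteins had the highest levels per length. Scaled per kilobase of exon, Ifitm3, which blocks fusion of viral and endosomal membranes, averaged 121 CPM per kb in untreated hom lines, against 311 CPM per kb in WT lines. Bst2, tetherin, which holds budding virions on the cell surface, averaged 16.6 CPM per kb in untreated hom lines, against 112 CPM per kb in WT lines. Among WT lines these were the highest levels per length of the 37 genes.

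Ifitm3 had 60.6, 130 and 137 CPM in hom lines, 232, 666, 112 and 335 CPM in het lines and 361, 379 and 375 CPM in WT lines under poly(I:C). Untreated, Ifitm3 had 76.6, 88 and 82.4 CPM in hom lines, 140, 394, 90.4 and 161 CPM in het lines and 203, 222 and 208 CPM in WT lines. Bst2 had 11.6, 13.5 and 16.4 CPM in hom lines, 74.2, 341, 19.1 and 94.7 CPM in het lines and 164, 138 and 121 CPM in WT lines under poly(I:C) and 16.8, 12.8 and 15.4 CPM in hom lines, 60.9, 322, 22.2 and 61.3 CPM in het lines and 123, 99.1 and 81.5 CPM in WT lines untreated. Both genes were lower in every hom line than in every WT line in both conditions, by 1.77 ± 0.52 and 3.35 ± 0.94 in log2 (SE) under poly(I:C), without passing in edgeR (adjusted p = 0.236 and 0.202).

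Tor3a, a torsin ATPase of the endoplasmic reticulum, had 10, 15.5 and 29.9 CPM in hom lines, 121, 436, 30.9 and 156 CPM in het lines and 128.8, 200 and 240 CPM in WT lines under poly(I:C). The untreated levels of Tor3a were 13.9, 14.4 and 16.9 CPM in hom lines, 29.8, 132, 16 and 26.3 CPM in het lines and 34.9, 42.4 and 50.6 CPM in WT lines. The hom group lay under the WT group in both conditions, and the log2 gap was -3.36 ± 0.80 (SE) under poly(I:C) and -1.50 ± 0.76 untreated (edgeR adjusted p = 0.0794 and 0.976). Lgals3bp, a secreted glycoprotein that binds galectins, and Rtp4, a chaperone of receptors in the Golgi, had log2 differences of -3.37 ± 0.79 and -3.97 ± 0.91 under poly(I:C). Shisa5, a protein of the endoplasmic reticulum, showed the smallest gap of this group, -0.87 ± 0.20 under poly(I:C), with 71.9 to 78.7 CPM in untreated hom lines, against 97.5 to 103 CPM in untreated WT lines.

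Apolipoprotein L genes code for lipid-binding proteins, and 3 of them are members. Apol9a had 4.17, 8.22 and 7.12 CPM in hom lines, 86.7, 136, 14.3 and 40.1 CPM in het lines and 102, 76.6 and 61.5 CPM in WT lines under poly(I:C), and 3.08, 2.89 and 3.02 CPM in hom lines, 20.8, 64, 9.61 and 8.29 CPM in het lines and 34.3, 27.9 and 16.1 CPM in WT lines untreated. Apol9b had 3.13, 4.59 and 6.59 CPM in hom lines, 39.4, 81.1, 9.71 and 30.2 CPM in het lines and 51.9, 48.7 and 36.1 CPM in WT lines under poly(I:C), and 1.85, 1.76 and 1.64 CPM in hom lines, 14.1, 51.4, 6.48 and 4.61 CPM in het lines and 22.7, 21.1 and 13.2 CPM in WT lines untreated. The 2 genes are 98.5% identical over 1529 aligned bases, so their levels cannot be told apart with certainty, and both were lower in every hom line than in every WT line. Apol7a, a less abundant relative, had 0.13, 0.242 and 0.178 CPM in hom lines, 4.72, 8.95, 1.65 and 4.35 CPM in het lines and 7.87, 3.65 and 5.95 CPM in WT lines under poly(I:C), the smallest p of the comparison among members (edgeR adjusted p = 0.0211). Its hom value rests on 3 counts over the 3 lines, against 104 counts in WT lines, so the fitted log2 difference of -4.92 is not precise.

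TRIM21 is a ubiquitin ligase that binds antibody-coated virions, and TRIM30A is a mouse ligase that restrains NF-kB signalling. Trim30a had 1.04, 0.242 and 3.38 CPM in hom lines, 11.8, 127, 4.94 and 10 CPM in het lines and 26.4, 38.3 and 15.1 CPM in WT lines under poly(I:C) and 0.493, 0.878 and 1.01 CPM in hom lines, 5.71, 59.2, 3.24 and 2.37 CPM in het lines and 13.2, 13.5 and 5.86 CPM in WT lines untreated. Hom lines of Trim30a were below WT lines in both conditions, although WT lines themselves differed, with E2.7 lowest. Trim21 had 5.21, 10.4 and 13 CPM in hom lines, 72.5, 268, 20.1 and 99 CPM in het lines and 83.8, 116 and 135 CPM in WT lines under poly(I:C), with a log2 difference of -3.57 ± 0.77 (SE, edgeR adjusted p = 0.0505), just outside the threshold.

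PML, SP100 and DAXX form nuclear bodies that silence incoming viral genomes, and the PYHIN proteins IFI203 and IFI204 belong to a family of DNA sensors. Pml had 39.7, 39.4 and 33.3 CPM in hom lines, 94.5, 213, 67.6 and 106 CPM in het lines and 88.3, 111 and 121 CPM in WT lines under poly(I:C), with a log2 difference of -1.51 ± 0.32 (SE, edgeR adjusted p = 0.045) between hom and WT lines. Untreated Pml had 33.9, 37.5 and 32.1 CPM in hom lines, 48.3, 81.9, 45.9 and 39.2 CPM in het lines and 49.2, 50.3 and 48 CPM in WT lines, a narrower gap that did not overlap. Daxx had 38.7, 30.9 and 34.4 CPM in hom lines, 73.4, 297, 49.2 and 90.7 CPM in het lines and 77.4, 128 and 115 CPM in WT lines under poly(I:C) and 47.4, 33.6 and 36 CPM in hom lines, 42.7, 72.3, 37.3 and 41.8 CPM in het lines and 44.2, 45.3 and 42.6 CPM in WT lines untreated. Hom and WT lines of Daxx overlapped in untreated cells, where hom line E1.4 was highest of these 6, and were apart under poly(I:C). Sp100 was 2.16 ± 1.45 lower in log2 under poly(I:C). The PYHIN genes Ifi203 and Ifi204, 88.3% identical over 939 aligned bases, were 2.74 ± 1.25 and 3.88 ± 1.12 lower. None of the 3 passed. Hom line E2.9, the line with macrophage markers, was the highest hom line for each. In hom lines Sp100 had 0.651, 0 and 2.67 CPM, Ifi203 0.782, 0.725 and 8.55 CPM, and Ifi204 2.87, 3.14 and 9.61 CPM. For each gene every WT line lay higher.

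Ifi44 led the other interferon-induced genes by size of the gap; it codes for a GTP-binding protein that slows proliferation. Ifi44 had 0.521, 1.21 and 1.42 CPM in hom lines, 64.5, 322, 8.89 and 76.5 CPM in het lines and 108, 102 and 96.7 CPM in WT lines under poly(I:C), a log2 difference of -6.66 ± 1.47 (SE, edgeR adjusted p = 0.0557) between hom and WT lines. In untreated cells Ifi44 had 0.246, 1.38 and 1.01 CPM in hom lines, 17.9, 146, 3.96 and 17.5 CPM in het lines and 52.4, 42.6 and 26.9 CPM in WT lines. Every hom line stayed at or below 1.42 CPM in both conditions. Ifi27, a small hydrophobic protein of mitochondria, had 4.95, 13.3 and 12.1 CPM in hom lines, 20.7, 69.6, 18.3 and 35 CPM in het lines and 39.3, 60.6 and 33.8 CPM in WT lines under poly(I:C) and 6.28, 11.4 and 8.44 CPM in hom lines, 15.9, 63.2, 21 and 33.9 CPM in het lines and 32.6, 51 and 31.7 CPM in WT lines untreated. Hom lines of Ifi27 were below WT lines, and its change under poly(I:C) did not pass in any genotype.

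Ncoa7, a coactivator whose short isoform promotes acidification of endosomes against viral entry, had 12.9, 17.4 and 16 CPM in hom lines, 58.8, 153, 30.9 and 50.8 CPM in het lines and 56.4, 68.3 and 71.6 CPM in WT lines under poly(I:C). The log2 difference of Ncoa7 between hom and WT lines was -2.09 ± 0.41 (SE, edgeR adjusted p = 0.0326). Ifi35 and its binding partner Nmi were 1.91 ± 0.58 and 1.85 ± 0.75 lower in log2 in hom lines under poly(I:C), and Xaf1, an antagonist of the apoptosis inhibitor XIAP, 3.90 ± 0.92 lower; none of these 3 passed in edgeR.

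The response to poly(I:C) was read as the change from untreated cells within a genotype. In WT lines all 36 fitted members were higher in each of 3 lines, where 30.3% of all genes were higher in each line. The groups did not overlap for 34 members, where 16.3% of all genes did so. The median log2 change was 1.55, against 0.01 over all genes. The edgeR test that takes libraries as independent called 4 members, all higher, where 1.26% of all genes were called higher. They were Mx2 (4.52 ± 1.04, SE), Trim21 (2.8 ± 0.73), Znfx1 (1.80 ± 0.40) and Pml (1.12 ± 0.31), with adjusted p of 0.016, 0.0339, 0.0144 and 0.0474.

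Libraries of 1 line share their cells, and with the line as replicate block 34 of 36 members passed in WT lines, all higher, where 7.39% of all genes were called higher. The exceptions were Bst2, at 0.48 ± 0.18 in log2 (adjusted p = 0.0794), and Ifi27, at 0.21 ± 0.15 (adjusted p = 0.365). Without the block, leaving out WT line E1.5, E2.1 or E2.7 gave 0 calls each. With the block these fits gave 29, 29 and 28 calls, where 2.08%, 2.97% and 2.69% of all genes were called higher. DESeq2 called 9 members without the block, where 2.17% of all genes were called higher, and a fit of these groups alone called 33, where 6.68% were. A fit without the filter on low counts called 1, where 0.245% of all genes were called higher, and a fit without het line E2.5 and hom line E2.9 called 17, where 1.44% were. Those lines were extreme for many members, as stated above, so the 17 calls are no independent support.

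By role, the blocked test called 3 of 3 GTPase and ATPase effectors in WT lines (median log2 change 4.06), both nucleotide enzymes (3.60), 9 of 9 RNA-directed factors (1.73), 8 of 9 membrane and lipid-binding proteins (1.26), both TRIM ligases (2.01), 5 of 5 nuclear body and PYHIN genes (1.52) and 5 of 6 fitted others (1.02). In Rsad2 the WT lines averaged 398 ± 30.5 CPM under poly(I:C), against 27.4 ± 10.6 CPM untreated (SD, n = 3 each). Of the 36, Mx2 had the largest log2 change and Ifi27 the smallest.

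In het lines the members that passed were also higher under poly(I:C). In the unblocked edgeR test 11 members were higher, where 2.21% of all genes were called higher. The 6 with the smallest p were Znfx1 (log2 change 1.91 ± 0.35, SE), Mx2 (4.43 ± 0.89), Trim21 (3.01 ± 0.64), Ncoa7 (1.53 ± 0.34), Slfn5 (3.46 ± 0.78) and Pml (1.17 ± 0.27), with adjusted p of 0.00232 to 0.0111. The others were Mx1, Rsad2, Cmpk2, Slfn8 and Daxx, and the 2 with the largest p were Bst2 and Ifi27. With the replicate block 34 members passed in het lines, where 8.78% of all genes were called higher. All 34 of these also passed in WT lines. The median log2 change was 1.46, against 0 over all genes.

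The unblocked count in het lines was 17 without E2.5, 5 without E1.3, 3 without E2.8 and 13 without E2.6, where 1.37%, 0.826%, 0.57% and 2.77% of all genes were called higher. It was 0 in a fit on the het groups alone, where 0.518% of all genes were called higher. In 3 het lines all 36 members were higher under poly(I:C), and in E2.6, the het line with macrophage markers, 34 were. For these counts by line no share of all genes is given. The median change by line was 2.05 in E2.8, 1.46 in E2.5, 1.38 in E1.3 and 0.80 in E2.6, after 0.5 CPM was added to each value. Over all genes the median change was -0.01, 0, 0.01 and -0.01 in the same lines.

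In hom lines the response to poly(I:C) was called only with the pairing by line, apart from DESeq2. The unblocked edgeR test called 0 of 36, where 0.531% of all genes were called higher. At an unadjusted p under 0.05 it gave 5, all higher, where 5.61% of all genes were, and DESeq2 called 2, where 1.37% of all genes were called higher. With the replicate block 13 members passed as higher, where 5.54% of all genes were, and all 13 also passed in WT and in het lines. The count was 3 without hom line E2.9, namely Rsad2, Cmpk2 and Ddx60, and 11 without E1.4 and without E2.2. In these fits 1.87%, 10.8% and 3.42% of all genes were called higher. Of the 36 members, 16 were higher in every hom line, where 19.2% of all genes were, and 2 were lower in every hom line, where 19.2% of all genes were as well.

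The median log2 change was 0.69 in hom lines, against 0 over all genes. The 13 were Mx1, Mx2, Rsad2, Cmpk2, Rtp4, Ddx60, Slfn2, Ifi203, Slfn8, Xaf1, Trim21, Rnf213 and Slfn9. Among those that did not pass in hom lines, the log2 change with the block was 0.12 ± 0.14 (SE) for Pml, -0.16 ± 0.23 for Daxx, -0.21 ± 0.22 for Ncoa7, 0.21 ± 0.26 for Tor3a and 0.27 ± 0.88 for Ifi44. In WT lines the same genes changed by 1.10 ± 0.13, 1.25 ± 0.23, 1.10 ± 0.20, 2.12 ± 0.22 and 1.34 ± 0.27.

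**Figure D4:**
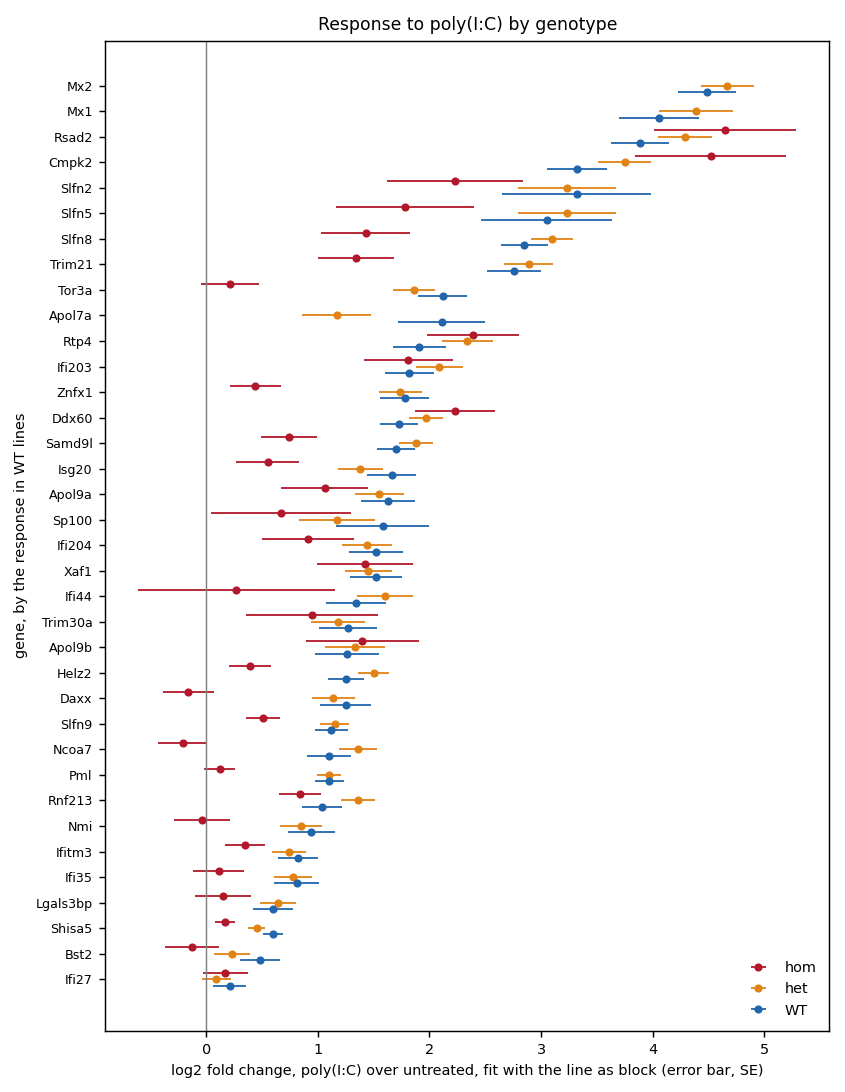
Log2 change under poly(I:C) against untreated cells of the same lines, from the edgeR fit with line as block, for hom, het and WT lines, with bars of 1 SE. Hom points of Mx1, Mx2 and Apol7a are left out because a hom group holds 3 counts or fewer, and hom points lie near 0 for Pml (0.12), Daxx (-0.16), Ncoa7 (-0.21) and Tor3a (0.21) while those of Rsad2 and Cmpk2, on 8 and 6 untreated counts, lie at 4.65 and 4.52.

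With the block, the fitted change was larger in hom lines than in WT lines for 6 of 36 members. Of these, 4 genes of low untreated level are described here, and their values rest on few counts in hom lines. Rsad2 had a log2 change of 4.65 ± 0.64 (SE) in hom lines and 3.89 ± 0.26 in WT lines with the block, and Cmpk2 had 4.52 ± 0.68 in hom lines and 3.32 ± 0.27 in WT lines. The hom values rest on 8 untreated counts of Rsad2 (0, 3 and 5) and 6 of Cmpk2 (1, 4 and 1), and hom line E2.9 held 113 of 150 Rsad2 counts and 60 of 100 Cmpk2 counts under poly(I:C). Without E2.9 the hom changes were 4.11 ± 1.08 for Rsad2 and 3.60 ± 0.91 for Cmpk2. Line by line, with 0.5 CPM added to each value, Rsad2 changed by 2.69, 2.32 and 4.19 in log2 in hom lines, against 3.33, 4.03 and 4.34 in WT lines, and Cmpk2 by 1.98, 2.71 and 4.16 in hom lines, against 2.76, 3.51 and 3.65 in WT lines. On that scale hom lines E1.4 and E2.2 lay below every WT line for both genes, so the order of the genotypes differed between the fitted and the line-by-line values. Ddx60 had a log2 change of 2.23 ± 0.36 in hom lines, 2.0 ± 0.49 without E2.9, and 1.73 ± 0.17 in WT lines. Line by line on the scale above, Ddx60 changed by 1.37, 1.54 and 2.08 in hom lines, against 1.67, 1.68 and 1.76 in WT lines. For Ddx60 too, hom lines E1.4 and E2.2 lay below every WT line on that scale. Rtp4 had 2.39 ± 0.41 in hom lines, 2.11 ± 0.58 without E2.9, and 1.91 ± 0.24 in WT lines. Line by line Rtp4 changed by 1.91, 1.8 and 2.57 in hom lines, against 2.01, 1.72 and 1.98 in WT lines, which overlap. These genes began from under 3 CPM in untreated hom lines, and their levels under poly(I:C) stayed below those of every untreated WT line, for all 4 genes and in every hom line.

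The difference in response between hom and WT lines was tested as an interaction. The median over members was -0.63 in log2, against 0 over all genes, with 29 of 36 members negative. The test called 0 of 36 in edgeR, where 0% of all genes were called, 0 with the replicate block and 0 in DESeq2. At an unadjusted p under 0.05, edgeR gave 5 members, all negative, without the block, where 0.576% of all genes were negative at that limit. It gave 15, all negative, with the block, where 2.17% of all genes were. The smallest adjusted p with the block were those of Tor3a (-1.91 ± 0.34, SE; 0.116) and Pml (-0.98 ± 0.19; 0.124). Mx1, Mx2, Trim30a, Apol9b and Ifi27 changed sign when single lines were left out.

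Het lines did not form 1 common level. In summed effectors E1.3, E2.6 and E2.8 lay between hom and WT lines in each condition, while E2.5 lay above WT lines. Untreated, E1.3, E2.6 and E2.8 had 1124, 720.7 and 1038 CPM, against at most 558.2 CPM in hom lines and at least 1465 CPM in WT lines. Under poly(I:C) they had 3118, 1389 and 3646 CPM, against at most 878.3 and at least 4070 CPM. Under AO they had 1022, 662.4 and 872.6 CPM, against at most 492.5 and at least 1496 CPM. Of the 36 fitted members, het line E2.5 was the highest het line for 36 under poly(I:C), 34 under AO and 34 untreated, where it was so for 22.8%, 19.9% and 22.1% of all genes. It lay above every WT line for 36 in each condition, where 26.7%, 21.5% and 24.3% of all genes did so. Its summed effectors were 11850 CPM under poly(I:C) and 4036 CPM untreated, against 4580 and 1746 CPM in the highest WT line. The other het lines lay mostly under the WT lines. Under poly(I:C), E2.6 was below every WT line for 34 of 36 members, E2.8 for 18 and E1.3 for 28, where 32.7%, 22.3% and 20.8% of all genes were. Untreated, the counts were 32, 33 and 24, where 31.3%, 22.1% and 20.9% of all genes were.

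Het against WT lines gave 0 calls of 36 in edgeR in each of the 3 conditions, with 0 members at an unadjusted p under 0.05 and 0 calls in DESeq2. The share of all genes called was 0% under poly(I:C), 0% under AO and 0% untreated. The median log2 ratio of het to WT means, after 0.5 CPM was added, was 0.13 untreated with all 4 het lines and -0.82 without E2.5, with 34 of 37 members lower. Under poly(I:C) it was 0.15 with E2.5 and -0.76 without, and under AO -0.03 with E2.5 and -0.99 without. Untreated and under poly(I:C), the sign of this median therefore turned without that 1 line, while under AO it was negative with and without it. E2.5 was the highest het line for most members, so leaving it out lowers the het means of these genes. For the 34 members lower, no share over all genes is given.

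AO left most effectors near their untreated levels. Summed effectors were 404.7 to 492.5 CPM in hom lines, 662.4 to 3381 CPM in het lines and 1496 to 1578 CPM in WT lines under AO. The unblocked edgeR test called 0 of 36 members in hom, het and WT lines, and DESeq2 called 0. At an unadjusted p under 0.05, 1, 1 and 0 members were lower, where 11.9%, 11.5% and 9.59% of all genes were. The share of all genes called was 13% in hom lines, 11.1% in het lines and 7.65% in WT lines. With the replicate block 5 members were lower in hom lines, 4 in het lines and 4 in WT lines, where 14.9%, 14.6% and 11.6% of all genes were called lower. In each genotype these calls were no more frequent among the 36 members than among all genes. Samd9l, Pml, Znfx1 and Slfn9 were called in all 3 genotypes, and Lgals3bp in hom lines.

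Pml had 15.9, 20.8 and 19.5 CPM in hom lines, 28.7, 55.9, 28.2 and 28.8 CPM in het lines and 29.9, 31.1 and 36.2 CPM in WT lines under AO, a change from untreated cells of -0.87 ± 0.15 (log2, SE) in hom lines, -0.62 ± 0.12 in het lines and -0.62 ± 0.14 in WT lines (blocked adjusted p = 0.000237, 0.000546 and 0.00276). Samd9l had 1.74, 3.15 and 4.97 CPM in hom lines, 15.6, 78.9, 8.11 and 11 CPM in het lines and 33.2, 28.9 and 29.2 CPM in WT lines under AO, with changes of -0.95 ± 0.32, -1.02 ± 0.17 and -0.89 ± 0.18. Every line of each genotype was lower under AO than untreated for both genes.

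Hom lines lay below every WT line for 33 of 36 members under AO, where 5.19% of all genes did, with a median log2 difference of -2.56, against 0.01 over all genes. EdgeR called 0 of 36, where 0% of all genes were called, 24 were lower at an unadjusted p under 0.05, where 2.84% of all genes were, and DESeq2 called 11, where 0.237% of all genes were called lower. Rsad2 had 0, 1.58 and 0.955 CPM in hom lines, 38.5, 134, 5.75 and 8.13 CPM in het lines and 43.3, 32.9 and 39.3 CPM in WT lines under AO, and Ifi44 had 0.747, 0.525 and 1.34 CPM in hom lines, 24.2, 165, 11.9 and 14.7 CPM in het lines and 54.4, 50.3 and 51.4 CPM in WT lines. Bst2 had 31.6, 11.8 and 13.2 CPM in hom lines, 68.3, 345, 28.3 and 70.7 CPM in het lines and 151, 118 and 124 CPM in WT lines, and Ifitm3 had 69, 78.3 and 63 CPM in hom lines, 118, 336, 97.3 and 136 CPM in het lines and 167, 198 and 202 CPM in WT lines. In these 4 genes the hom values lay below the WT values, with Bst2 highest in hom line E1.4.

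Under AO, of the 36 fitted members, Daxx, Slfn2 and Slfn5 overlapped between hom and WT lines. Mx1 had 0, 0 and 0 CPM in hom lines, 2.08, 11.4, 0.147 and 1.69 CPM in het lines and 1.94, 3.66 and 9.76 CPM in WT lines, at least 22.1-fold lower in hom than in WT lines against a floor of 3 counts over the hom group, and Mx2 had 0, 0 and 0.191 CPM in hom lines, 5.54, 26.8, 1.33 and 2.15 CPM in het lines and 7.77, 7.72 and 13.1 CPM in WT lines. Tor3a had 18.9, 23.4 and 25.2 CPM in hom lines, 39.2, 139, 22.6 and 41.4 CPM in het lines and 48.2, 60.4 and 82.4 CPM in WT lines, and Ddx60 had 0.249, 0.263 and 0.764 CPM in hom lines, 12.8, 30.3, 4.86 and 4.6 CPM in het lines and 18.3, 11.2 and 16.1 CPM in WT lines. Hom and WT lines did not overlap for any of these. Apol9a had 2.24, 1.31 and 1.34 CPM in hom lines, 16.6, 49.9, 6.19 and 3.99 CPM in het lines and 25.8, 18.7 and 14.4 CPM in WT lines, and Apol9b had 0.996, 0.525 and 0.764 CPM in hom lines, 11.1, 37.9, 2.21 and 1.84 CPM in het lines and 13.8, 13.6 and 11.4 CPM in WT lines. Trim30a had 0, 0 and 1.53 CPM in hom lines, 4.5, 54, 2.51 and 1.53 CPM in het lines and 9.91, 11 and 9.39 CPM in WT lines, and Ifi27 had 10.2, 10.2 and 8.79 CPM in hom lines, 17.5, 62.9, 23.7 and 34.2 CPM in het lines and 33.4, 61.2 and 29 CPM in WT lines. Apol9a, Apol9b, Trim30a and Ifi27 were again lower in every hom line. Isg20 had 5.23, 3.68 and 1.91 CPM in hom lines, 3.46, 14.3, 2.21 and 1.99 CPM in het lines and 5.44, 5.28 and 6.51 CPM in WT lines. Daxx had 54.5, 43.6 and 32.1 CPM in hom lines, 42.2, 71.4, 32.7 and 39.4 CPM in het lines and 54.4, 52.6 and 48.4 CPM in WT lines, and Slfn2 had 0, 0 and 1.15 CPM in hom lines, 0.462, 1.38, 1.47 and 0.153 CPM in het lines and 0, 0.813 and 0.375 CPM in WT lines. Hom and WT lines overlapped for Daxx and Slfn2, and not for Isg20.

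Cell density was compared in WT line E1.5, with 1 library per density and treatment. The effectors were higher at high density: 37 of 37 under poly(I:C), 35 under AO and 37 untreated exceeded the low-density library, where 53%, 51.1% and 51.1% of all genes did. Their sum was 7619 CPM at high density, against 2073 CPM at low density, under poly(I:C), 2434 against 857.8 CPM under AO, and 2766 against 989.5 CPM untreated. The libraries of this line without a density label lay between, at 4027, 1482 and 1726 CPM. A fit with additive terms for treatment and density called 34 of 36 members higher, where 8.98% of all genes were called higher, with a median log2 difference of 1.83, against 0.01 over all genes.

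The test takes the 3 treatments as replicates of a density within 1 line. Depth moved with density, with 16474011 to 22756870 counts at high density, against 5391393 to 6307963 counts at low density. Its part in the difference was not tested. Ifi44 stood at 275 CPM at high density, against 39.8 CPM at low density, under poly(I:C), and at 110 against 13.6 CPM untreated (log2 difference 2.84 ± 0.10, SE; edgeR adjusted p = 8.51e-11). Ifitm3 stood at 532 against 203 CPM under poly(I:C) and at 322 against 116 CPM untreated (1.51 ± 0.06; 6.22e-10). For both genes each high-density library exceeded its low-density counterpart, AO included.

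Xaf1 stood at 118 CPM at high density, against 27.5 CPM at low density, under poly(I:C), and at 44.6 against 9.41 CPM untreated (2.21 ± 0.09). Tor3a stood at 284 against 60.5 CPM and at 60.7 against 17.9 CPM in the same conditions (1.98 ± 0.09), Lgals3bp at 177 against 53.6 CPM and 118 against 28.6 CPM (1.87 ± 0.09), and Bst2 at 322 against 75.2 CPM and 231 against 78.7 CPM (1.81 ± 0.09). The members with the largest p, Daxx (0.74 ± 0.26, adjusted p = 0.134) and Apol7a (0.79 ± 0.37, adjusted p = 0.161), did not pass in edgeR. Slfn2, Mx1 and Sp100 had the largest log2 differences, 3.86 ± 0.53, 3.58 ± 0.31 and 3.42 ± 0.28, all from low levels at low density.

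**Figure D5:**
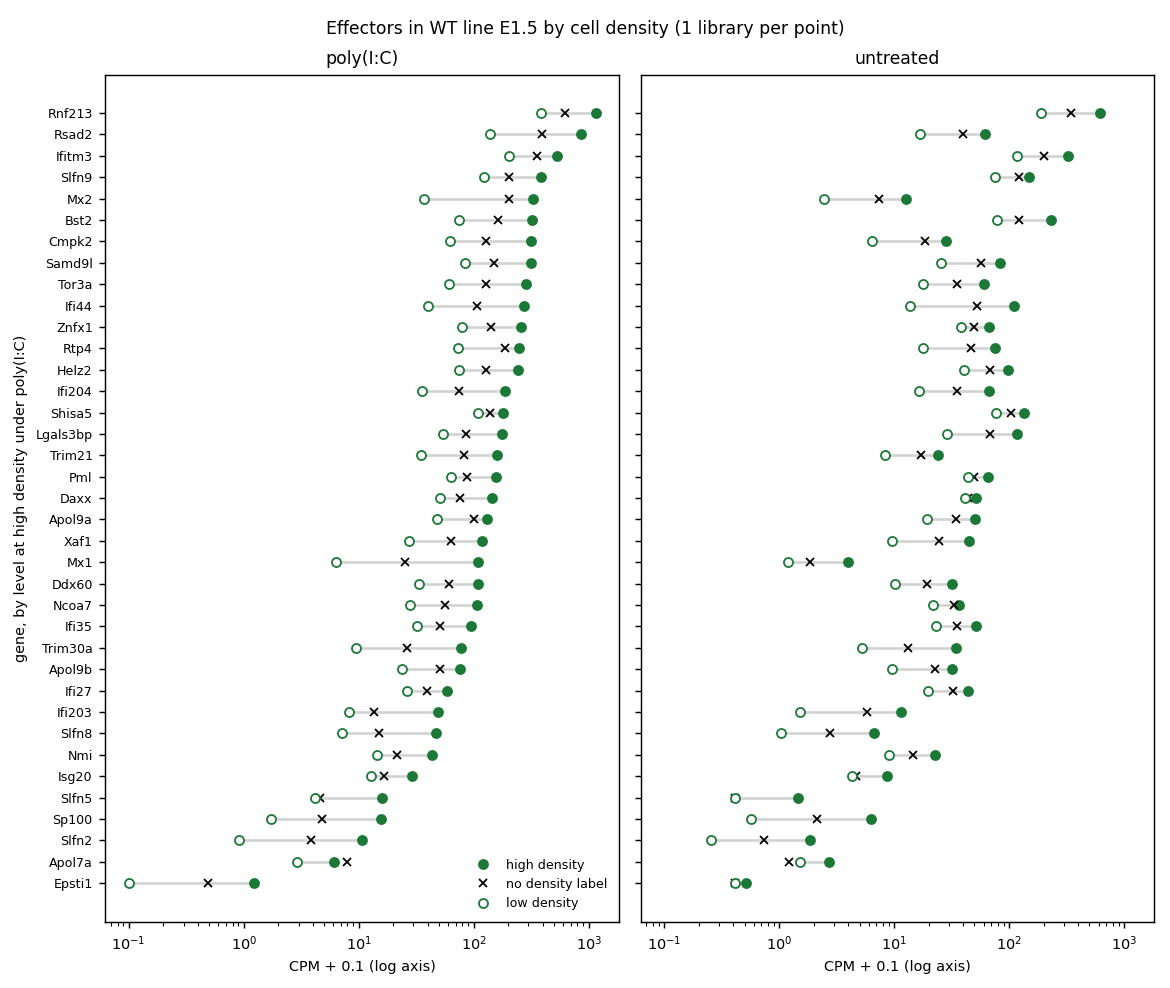
Level of 37 effectors in WT line E1.5 at high density (filled circles), without a density label (crosses) and at low density (open circles), as CPM plus 0.1 on a log axis, under poly(I:C) and untreated. Each point is 1 library, and high density exceeds low density for all 37 genes in both panels.

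The fold response to poly(I:C) was set against density by ratio of CPM for the 32 members with 1 CPM or more untreated at every density. Its median was 2.63 at high density, against 2.13 at low density, and 2.2 without a label, and 22 of 32 ratios were larger at high than at low density. These ratios come from 1 library each and were not tested.

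The upstream genes of the pathway, a list of 21 from Ifnb1 through the receptors to Tbk1 and Ikbke, moved in part with the effectors. Under poly(I:C) 4 of 21 were lower in hom lines than in WT lines in edgeR, where 0.187% of all genes were, and 0 were higher: Ifnb1, Irf9, Ifih1 and Dhx58, the last pair named after their values were seen. Ifnb1, interferon beta, had 0.261, 0 and 0.534 CPM in hom lines, against 22.7, 9.33 and 23.6 CPM in WT lines, under poly(I:C) (log2 difference -5.94 ± 0.92, SE; adjusted p = 0.0253). Irf9, a DNA-binding factor that acts at the ISRE, had 30.6, 35.1 and 48.8 CPM in hom lines, against 192, 190 and 200 CPM in WT lines (-2.35 ± 0.48; adjusted p = 0.0408).

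Untreated, 0 of the 21 passed in edgeR, and Ifnb1 was listed at 0 counts in hom and in WT lines. Irf9 had 21.8, 20.3 and 23.3 CPM in untreated hom lines, against 82.3, 84.2 and 80.8 CPM in WT lines, and Irf7, an amplifying factor, 1.36, 1.38 and 1.01 CPM against 26, 26.8 and 22.8 CPM. Neither overlapped, although neither passed (adjusted p = 0.549 and 0.776). With the replicate block, the response to poly(I:C) was called in 8 of 21 genes in hom lines, 12 in het lines and 12 in WT lines, all higher, where 5.54%, 8.78% and 7.39% of all genes were called higher. At high against low density 12 of the 21 were higher, where 8.98% of all genes were, and 0 lower, with Irf7 at 211 against 38.8 CPM under poly(I:C).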

How the data were processed

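RNA was purified from 36 MEF samples and made into stranded mRNA libraries, per the labels' protocols. Each library has a table of expected counts by gene, deposited by the authors, in which a value may be fractional. The build mm10 and the tools RSEM and STAR are named without versions, per the submitters' processing notes. For annotation release and strand setting the sources used here give nothing. RSEM divides reads between similar genes. Between 6.11% and 13.4% of the values of a library were not whole, and all were rounded to whole numbers.

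Of 49585 genes, 49326 matched GENCODE vM21 by identifier, which gave symbols. Groups were taken from sample titles and genotype labels. The 30 libraries without a density label were fitted in edgeR 4.0.16 (R 4.3.3) with TMM, filterByExpr (minimum count 10, minimum total 15), 1 coefficient per group and the robust quasi-likelihood F test, and a gene passed at an adjusted p under 0.05 over 13364 genes. The 9 libraries of WT line E1.5 were fitted with treatment and density terms over 12491 genes. SE is the log2 change divided by the root of F. CPM use TMM library sizes. Floors of 3 counts cover counting error only.

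Line names recur across treatments in the labels, so the libraries of a line are paired: their deviations from group means correlated by 0.345 to 0.782 in 30 pairs. Fitting the line as replicate block was the alternative, beside RLE factors, no filter, DESeq2 1.42.0, the compared groups alone, E1 or E2 as covariate and leaving out each line. Leaving out lines within the block, leaving out het line E2.5 with hom line E2.9, the unmoderated spread and the het means without E2.5 were added after the data were seen. Het line E2.5 was the highest het line for most members, so results without it are no independent support for them. Replicates differed by more than sampling noise (chi-square per degree of freedom at least 5.61). The titles give a code such as E1.5 for each line but not the animal, so p-values of the unblocked fit of 30 libraries measure the spread between these lines. Those with the line as block measure the spread left after line levels are removed. Those for density measure the departure from additive terms within 1 line. P-values of the unblocked fit take the libraries of a line as independent.

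The members and lists were chosen with earlier results of these data known. Given in full were members that passed or, beyond 10 of them, the 6 smallest and 2 largest p, and a fixed set with at least 1 gene of each role. Counts were simulated for hom against WT lines under poly(I:C), on 13196 genes with 50 genes per fold. Of genes changed by 2-fold, 4-fold, 8-fold and 16-fold, 42%, 69.4%, 92% and 87.8% were recovered, with 8 false calls. The shares of 69.4% and 87.8% are not whole numbers of 50 genes, so their base was not 50. Neither that base nor the spread simulated is given here. The members differed by a median log2 of -3.31 in that comparison, and 6 of 36 passed. The simulated shares therefore cannot be carried over to members that did not pass.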

Additional observations from a re-analysis of the deposited data

Results flagged for a closer look

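In single groups of 4 het lines, line E2.5 stood so far above the other 3 that the gap took up most of the group's range. This occurred in 19 of 48 groups examined, always with E2.5 as the high line. The groups share libraries, so no rate by chance is given, and no share over all genes is given for this pattern. Untreated, E2.5 had 9.61 CPM of Mx1 (0 to 0.902 CPM in the other het lines), 28.3 CPM of Mx2 (0.841 to 5.11), 146 CPM of Ifi44 (3.96 to 17.9), 322 CPM of Bst2 (22.2 to 61.3), 59.2 CPM of Trim30a (2.37 to 5.71), 16.5 CPM of Isg20 (1.8 to 4.21), 72.3 CPM of Daxx (37.3 to 42.7) and 132 CPM of Tor3a (16 to 29.8). Under poly(I:C) it had 2020 CPM of Rsad2 (108 to 340), 127 CPM of Trim30a (4.94 to 11.8) and 297 CPM of Daxx (49.2 to 90.7).

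Under AO, E2.5 had 26.8 CPM of Mx2 (1.33 to 5.54), 165 CPM of Ifi44 (11.9 to 24.2), 345 CPM of Bst2 (28.3 to 70.7), 336 CPM of Ifitm3 (97.3 to 136), 54 CPM of Trim30a (1.53 to 4.5), 14.3 CPM of Isg20 (1.99 to 3.46), 55.9 CPM of Pml (28.2 to 28.8) and 139 CPM of Tor3a (22.6 to 41.4). The genes share the 3 libraries of 1 line and are not independent of each other. The macrophage markers summed to 6.47 CPM or less in E2.5, and its epithelial markers summed to 62 to 80.7 CPM, the highest of the 30 libraries. That sum came mostly from Cdh1, Krt8 and Krt18, at 19.5, 24.1 and 35.6 CPM under poly(I:C). The other markers of the list, Epcam, Krt5 and Cldn4, stood at 0.465, 0 and 1.05 CPM there. Het line E1.3 had more Epcam (1.66 CPM) and Cldn4 (2.64 CPM) in that condition. Neither the part of the cells these marker lists stand for in the levels of E2.5 nor that of cell density was tested.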

How the results depend on the processing

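Members called in WT lines under poly(I:C) numbered 4, and 1 without the filter, 9 in DESeq2, 33 in the compared groups alone, 17 without E2.5 and E2.9, and 34 with the replicate block. Leaving out a line gave 0 to 0, and 28 to 29 with the block. In het lines the 11 became 7 without the filter, 0 in the compared groups alone, 18 without E2.5 and E2.9, and 34 with the block; leaving out a line gave 3 to 17, and 31 to 34 with the block (32 without E1.3 or E2.5). In hom lines the 0 became 2 in DESeq2 and 13 with the block, and 0 to 0 or, with the block, 3 to 11 without a line. AO calls of 0 became 4 in WT, 4 in het and 5 in hom lines with the block, 6 in WT lines fitted alone, and 1 in each genotype without E2.5 and E2.9; without single lines they were 0 to 0, 0 to 1 and 0 to 0, and with the block 2 to 4, 3 to 7 and 1 to 3. Hom against WT lines gave 0 untreated (11 in DESeq2, 18 fitted alone, 11 without E2.5 and E2.9, 0 to 0 without a line), 6 under poly(I:C) (1 without the filter, 28 in DESeq2, 26 fitted alone, 15 with E1 or E2 as covariate, 31 without E2.5 and E2.9, 0 to 1 without a line) and 0 under AO (11, 12 and 9 in DESeq2, fitted alone and without E2.5 and E2.9, 0 to 0 without a line). The difference in response gave 0, with 0 to 1 under the replicate block without a line. The cause of these shifts was not tested. Where no share of all genes is given above, a count shows only how the calls moved with the setting. Such a count cannot set the members apart from other genes. RLE factors and the unmoderated spread stayed within 1.5 times in every comparison. Density gave 33 to 35 under every alternative run.

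Signs of single genes turned in few fits. Slfn2 between hom and WT lines became -2.17 untreated and -2.41 under poly(I:C) without hom line E2.9, -2.17 and -2.43 without E2.5 and E2.9, and -0.0389 under poly(I:C) with E1 or E2 as covariate. In the difference of responses, Mx1 became -1.71 without E2.9, -1.25 with the block as well, and -1.73 without E2.5 and E2.9. Mx2 became 0.0455 in DESeq2, 2.57 without hom line E1.4 and 2.49 with the block as well. Trim30a became 0.223 without E2.2 (0.273 with the block), Apol9b -0.18 without E2.9 (-0.202 with the block, -0.201 without E2.5 and E2.9), and Ifi27 0.0115 without WT line E2.1 and 0.151 without E1.4 (0.159 with the block).

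Totals of 3689144 to 14879227 counts limit low genes: Mx1, Mx2, Cmpk2, Rsad2, Epsti1 and Apol7a held 0 to 11 counts over all untreated hom lines, so their folds are imprecise.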
